A study of Mus musculus with 5 samples.

Results

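The genes described here are those of the mouse kidney followed over 3 ages, with weight on the genes whose level at birth lay above or below the level at both other ages. A gene entered when its probe was well above background, as marked by the scanner software, on at least 1 of the 3 kidney arrays. This held for 18203 of 24570 named genes on the array. Each gene has a first step, the P0 level minus the E13.5 level, and a second step, the 8-week level minus the P0 level. A step counted when it reached 2-fold. Genes with a counted step on each side were called rising (higher, then higher again), falling (lower, then lower again), P0 peak (higher at P0 than on both sides) or P0 trough (lower at P0 than on both sides). Levels are log2 of the processed signal less log2 of that array's 75th percentile, taken without the control spots, so a level of 0 is the 75th percentile. A step is a difference of 2 such levels.

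The kidneys came from C57BL/6 mice at the embryonic stage E13.5, on the day of birth (P0) and at 8 weeks of age, with no treatment named. The series also holds tissue recovered 2 weeks and 4 weeks after transplantation of a kidney bud in the same strain. The transplants were not used to class genes. Each group had 1 array, so no value has a replicate check and no test was possible. The labels give neither the sex of the animals nor whether animals were pooled.

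Signals well above background came from 63.4% of gene spots on the E13.5, 65.7% on the P0 and 60.9% on the 8-week array, and no spot was saturated. The E13.5 array lay on slide 1 and the P0 and 8-week arrays on slide 2, so slide and age cannot be told apart in the first step. Both steps use the P0 array, and an error there moves them in opposite directions. On the P0 array the SD between copies of a probe was 0.0532 log2 units at the median, an error that leaves out labelling and animals. The kidney markers Pax2, Pax8, Wt1, Umod, Aqp2 and Nphs1 were well above background at all 3 ages. Six2, the marker of the nephron progenitor pool, was so at E13.5 and P0 only, and the phosphate transporter Slc34a1 at P0 and 8 weeks only.

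As background, the mouse kidney grows by branching of the ureteric bud into mesenchyme whose progenitor cells form nephrons in successive waves. Nephron formation goes on past birth for a few days, so a newborn kidney holds progenitors, immature nephrons and functioning tubules together. Birth also ends the supply from the placenta, and filtration, reabsorption and hormone production in the kidney increase while stroma, vessels and the renal pelvis mature.

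Of the 18203 genes, 605 formed a P0 peak (3.32%) and 221 a P0 trough (1.21%). The rising class held 1032 genes (5.67%) and the falling class 637 (3.5%). A single counted step was more common. At the first step alone 798 genes were higher (4.38%) and 950 lower (5.22%), and at the second step alone 2409 were higher (13.2%) and 2447 lower (13.4%). A further 7964 genes (43.8%) stayed under 2-fold at both steps. The rest were well above background at E13.5 only (523 genes, 2.87%) or at 8 weeks only (617 genes, 3.39%). The median steps of all genes were -0.12 and 0.07. Without the percentile scaling the median second step was -0.42, and the split became 898 peak against 92 trough genes. With normexp background correction, whose fit on the E13.5 array was poor, it was 228 against 763.

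The median P0 peak gene stood 3.67-fold higher at P0 than at E13.5 and 3.91-fold lower at 8 weeks than at P0. For the median trough gene the factors were 2.75 down and 2.93 up. In 286 of the 605 the 8-week level was within 2-fold of the E13.5 level, in 81 it was at least 2-fold above it and in 116 at least 2-fold below it. The remaining 122 were not well above background at either of these ages. Of the trough genes 172 of 221 returned to within 2-fold, 36 ended above and 13 below. Where 1 side of a step was not well above background the step is a lower bound, written "at least", which holds for 241 peak and 46 trough genes.

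**Figure D1:**
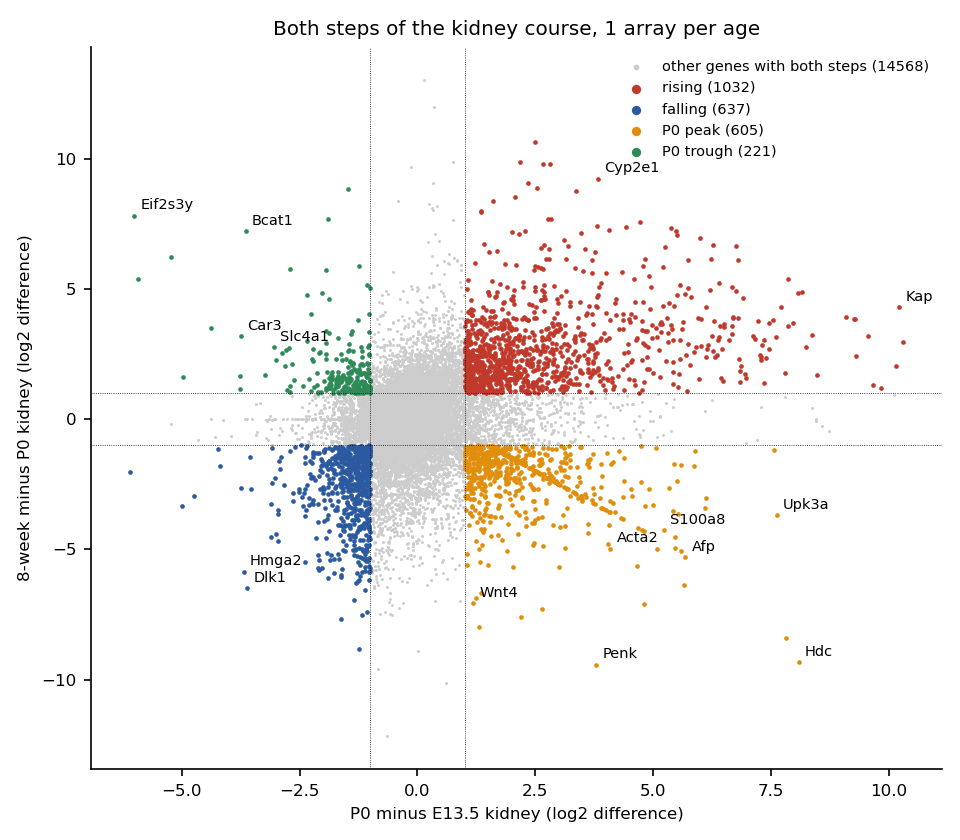
First step (x axis, P0 minus E13.5) against second step (y axis, 8-week minus P0) in log2 units, 1 point per gene, with dotted lines at a 2-fold step. The 605 P0 peak genes fill the lower right corner and the 221 P0 trough genes the upper left. The thin diagonal of peak points is made of genes not well above background at both other ages, whose 2 bounds are set by the P0 level alone.

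Promoter sequences are shown for 5 genes of the peak, rising and falling classes that hold a motif whose share differs between the classes. They were chosen for holding it, and most promoters of the peak and rising classes lack GTTAAT. The windows are RefSeq's on the GRCm38.p6 build and cover 250 bases before to 50 bases after the start. Of the 18203 genes 13505 matched a promoter by gene identifier, and the first listed one was used. The 250 bases before the start are printed 5′ to 3′ on the gene's strand. Capitals mark GTTAAT or its reverse ATTAAC, a part of the site of the factor HNF1, in the first 3 sequences. In the last 2 they mark CCAAT or its reverse ATTGG, the box bound by NF-Y. Afp (P0 peak) lies at chr5:90490464-90490713, plus strand. The windows of the rising genes Slc34a1 and Slc22a8 lie at chr13:55399398-55399647, plus strand, and chr19:8592932-8593181, plus strand. Those of the falling genes Aurka and Ccnb1 lie at chr2:172370571-172370820, minus strand, and chr13:100786487-100786736, minus strand.
Afp: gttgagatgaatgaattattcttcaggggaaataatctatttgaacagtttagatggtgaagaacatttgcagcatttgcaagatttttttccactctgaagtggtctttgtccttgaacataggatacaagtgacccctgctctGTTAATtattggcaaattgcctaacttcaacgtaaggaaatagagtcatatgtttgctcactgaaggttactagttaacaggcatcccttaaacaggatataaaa
Slc34a1: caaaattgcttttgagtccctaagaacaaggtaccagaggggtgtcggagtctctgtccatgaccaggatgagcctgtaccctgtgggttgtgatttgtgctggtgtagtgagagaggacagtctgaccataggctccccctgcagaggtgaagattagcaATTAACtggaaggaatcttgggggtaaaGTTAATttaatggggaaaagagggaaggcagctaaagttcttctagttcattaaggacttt
Slc22a8: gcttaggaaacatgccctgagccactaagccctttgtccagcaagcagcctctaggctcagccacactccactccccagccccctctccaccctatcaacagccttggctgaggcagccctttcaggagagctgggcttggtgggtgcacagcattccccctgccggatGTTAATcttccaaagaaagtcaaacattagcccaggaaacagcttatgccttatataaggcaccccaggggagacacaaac
Aurka: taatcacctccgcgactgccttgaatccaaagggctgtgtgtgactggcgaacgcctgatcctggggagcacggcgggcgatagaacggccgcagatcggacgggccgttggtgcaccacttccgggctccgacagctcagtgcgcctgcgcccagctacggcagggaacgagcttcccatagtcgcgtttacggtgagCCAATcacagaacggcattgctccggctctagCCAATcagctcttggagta
Ccnb1: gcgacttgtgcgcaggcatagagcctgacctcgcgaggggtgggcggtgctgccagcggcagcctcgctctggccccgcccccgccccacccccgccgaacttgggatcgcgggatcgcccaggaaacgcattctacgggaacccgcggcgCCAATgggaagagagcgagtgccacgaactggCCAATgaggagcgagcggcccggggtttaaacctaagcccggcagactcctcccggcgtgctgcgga

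Counted on both strands of the 300-base window, GTTAAT was present in 5.17% of all 13505 promoters of the course and in 7.2% of the 27025 promoters of the table. It was present in 11.1% of the rising, 7.32% of the P0 peak, 5.16% of the P0 trough and 3.73% of the falling promoters. Among proximal tubule genes it was found in 7 of 22. CCAAT was present in 38.3% of all promoters of the course (37.9% of the table), in 51.7% of the falling class and in 35.5% of the P0 peak class, and in 14 of 15 cell cycle promoters. TTTGAA, the cell cycle homology region, was present in 13.1% of the course's promoters (18.1% of the table), in 18.3% of the falling class and in 9 of 15 cell cycle promoters, but also in 8 of 22 proximal tubule promoters. CAAAGTCCA, an HNF4 site, was rare, with 0.422% of the course's promoters and 0.759% of the rising class. This last string can share letters with an adjoining CCAAT or TTTGAA. For GTTAAT the P0 peak class lay between the rising and the falling class, and for CCAAT and TTTGAA the falling class had the highest share of the 4. A match describes letters in a window and is not evidence of binding.

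Among peak genes well above background at all 3 ages, the largest smaller step was that of Afp, the fetal plasma protein of liver and yolk sac. Its level was -2.12 at E13.5, 3.56 at P0 and -1.74 at 8 weeks. The newborn kidney was therefore 51.4-fold above the embryonic and 39.3-fold above the adult one, which lay close together. Penk, the precursor of enkephalin peptides and a gene of the fetal stroma, had levels of 2.32, 6.11 and -3.31. It was 13.8-fold higher at P0 than at E13.5 and 687-fold lower at 8 weeks, so that the adult level lay far below the embryonic one. Hdc, which makes histamine, had levels of -4.01 and 4.07 and was not well above background at 8 weeks (-5.27). It stood 271-fold higher at P0 than at E13.5 and at least 649-fold higher than at 8 weeks.

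Serpina6, the corticosteroid-binding globulin of plasma, followed the course of Hdc with -4.78 at E13.5, 3.03 at P0 and -5.53, not well above background, at 8 weeks. Its steps were 224-fold up and at least 341-fold down, and its second probe fell in the same class. Pappa2, a protease that cleaves insulin-like growth factor binding proteins, had levels of -4.51, -0.37 and -3.57. R3hdml had -5.60, -0.18 and -3.69. In both the 2 outer ages lay well below birth, with the adult level somewhat above the embryonic one.

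Several of the largest peaks were genes that epithelia make. S100a14, an S100 protein of epithelia, had levels of -5.49, -0.03 and -4.55, a 44.1-fold and a 22.9-fold difference. Krt19, a keratin of simple and ductal epithelia, had -1.86, 1.77 and -2.58. Sprr2f, a cornified envelope protein, had -4.68, 0.97 and -5.93, the last not well above background. All 3 were high at birth alone among the kidneys. Tff2, a secreted trefoil peptide of mucosa, and Crisp3, a secreted cysteine-rich protein, were well above background at P0 only among the 3 ages, at least 44.1-fold and at least 48.1-fold over E13.5. Of 32 measured keratins 5 were P0 peaks (Krt13, Krt15, Krt18, Krt19 and Krt42), and of 23 claudins, the seal proteins of tight junctions, 5 (Cldn1, Cldn4, Cldn5, Cldn8 and Cldn11). Of all genes 3.32% were P0 peaks, and these families were drawn by symbol after the classes were seen.

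The gene lists gave the functions in each class. They held 518 measured genes, of which 58 were P0 peaks (11.2%), 10 P0 troughs, 96 rising and 45 falling. The lists name differentiation and response genes, so their shares are not those of all genes. Urothelium, neutrophil granule and smooth muscle genes had the highest shares of P0 peaks, followed by complement and immediate early genes. Proximal tubule genes had the highest share of rising genes, and fetal growth genes the highest share of falling genes. No list of at least 9 measured members was mainly in the trough class.

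**Figure D2:**
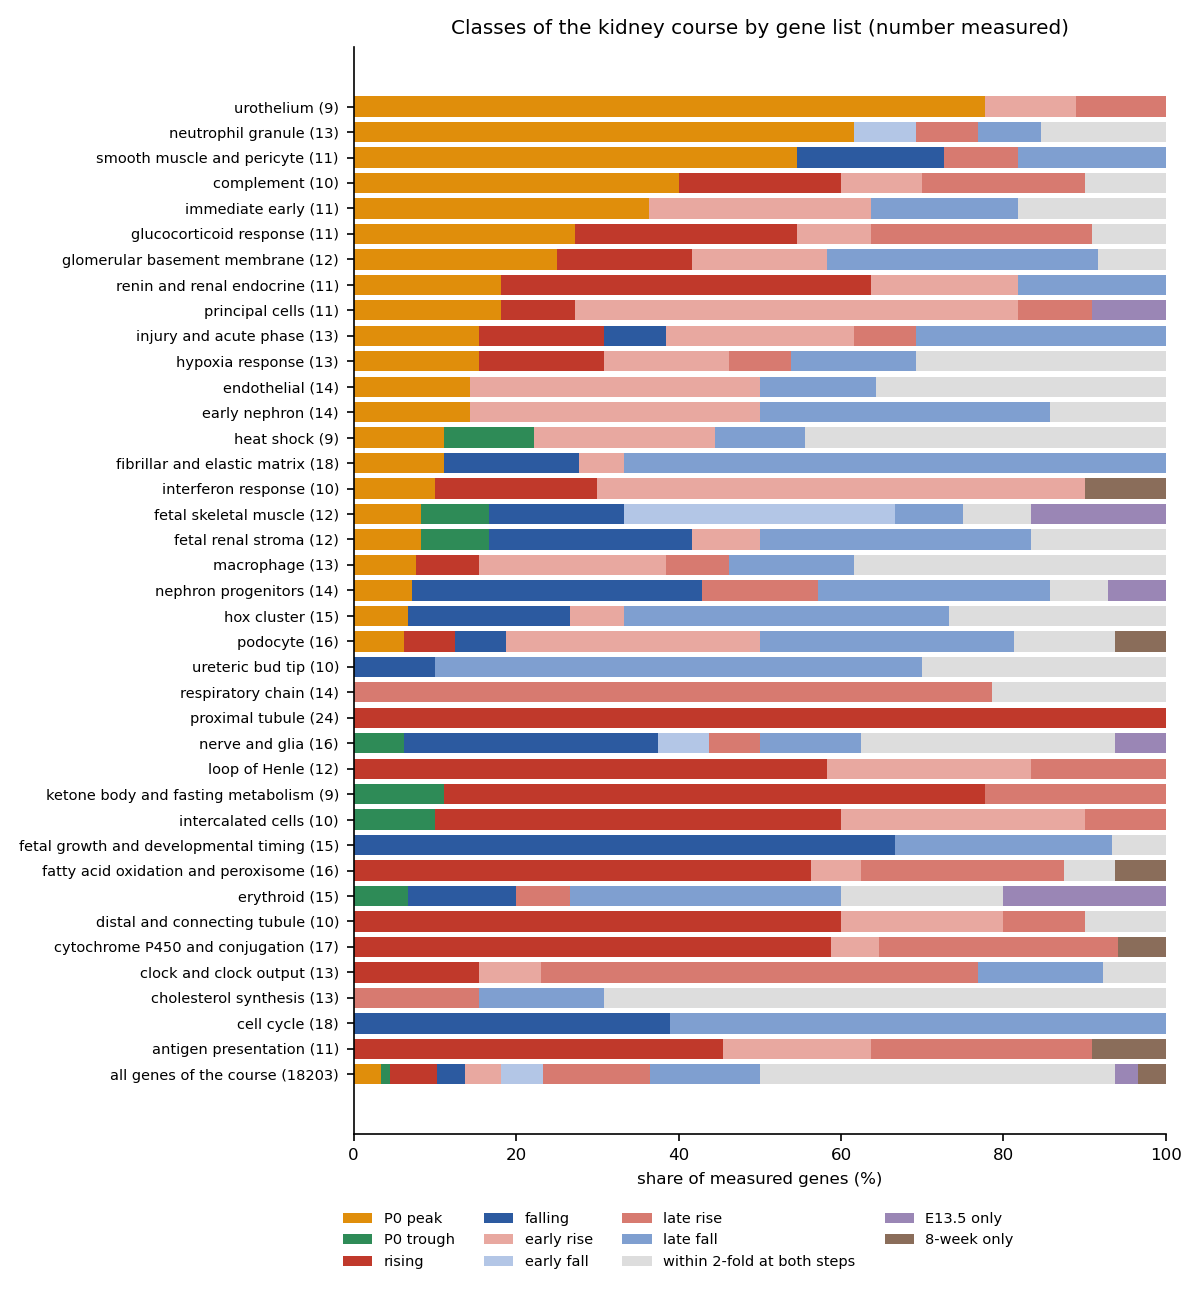
Share of each list's measured genes (x axis, percent) in each class, for the 38 lists with at least 9 measured members (number beside the name) and for all 18203 genes at the bottom. Orange P0 peak shares run from 7 of 9 urothelium genes down to none, while all 24 proximal tubule genes are red (rising).

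Smooth muscle genes were high in the newborn kidney. Of 11 measured smooth muscle and pericyte genes 6 were P0 peaks, against 3.32% of all genes, and the list's median steps were 1.59 and -2.10. Acta2, smooth muscle actin, had levels of 0.59 at E13.5, 4.68 at P0 and -0.28 at 8 weeks. It was 17.1-fold higher at P0 than at E13.5 and 31.3-fold lower at 8 weeks, with embryo and adult within 2-fold of each other. Cnn1, the actin-binding calponin, had levels of -2.99, 1.05 and -3.73, a 16.5-fold and a 27.4-fold difference. Tagln, transgelin, had 1.08, 4.66 and 1.68, so that it was 7.93-fold lower at 8 weeks than at P0. The same order of ages, with P0 on top, held for the contractile genes Actg2 and Myh11 and for the pericyte regulator Rgs5, whose levels were -1.43, 0.16 and -1.94.

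The other 5 members of the list did not peak. Des, the filament protein desmin, was falling (-0.74, -2.45 and -3.89), as was Myocd, the coactivator of smooth muscle genes, whose 8-week signal was not well above background. Notch3 and Pdgfrb, receptors of mural cells, were lower at the second step only. Mcam, an adhesion molecule of vessels, was 2.69-fold higher at 8 weeks than at P0, but its second probe had steps of 0.88 and -3.23. With normexp correction 3 members were P0 peaks. The skeletal actin Acta1 was also a P0 peak (-1.92, -0.22 and -4.67). Acta1 was the 1 P0 peak among the 12 fetal skeletal muscle genes. The summed level of the 12, Acta1 included, was 14.6 times the 75th percentile at E13.5, 3.75 at P0 and 0.409 at 8 weeks. At these ages 12, 10 and 4 of them were well above background.

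Urothelium, the lining of the renal pelvis and ureter, gave the highest share of peaks. Of 9 measured genes 7 were P0 peaks, with median steps of 2.11 and -2.31. Upk3a, a plaque protein of the umbrella cells, was not well above background at E13.5 (-6.33) and had levels of 1.73 at P0 and -1.95 at 8 weeks. It was at least 197-fold higher at P0 than at E13.5 and 12.8-fold lower at 8 weeks than at P0. Upk1a, another plaque protein, had levels of -3.00, 1.52 and -1.15, a 23.0-fold and a 6.35-fold difference.

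Upk2 was 6.21-fold lower at 8 weeks than at P0, and Upk1b and Upk3b were well above background at P0 alone of the 3 ages. The keratins Krt13 (-4.31, -2.43 and -4.74) and Krt15 (-3.89, -2.58 and -4.56) had smaller peaks. The basal keratin Krt5 was 4.32-fold higher at P0 than at E13.5 and 1.51-fold lower at 8 weeks. Trp63, the basal cell factor, was 2.10-fold higher at 8 weeks than at P0. Its second probe was well above background at P0 alone of the 3 ages, with bounded steps of 1.34 and -0.83. The number of the 9 genes well above background was 5 at E13.5, 9 at P0 and 7 at 8 weeks, and their summed level was 2.43, 9.63 and 4.95 times the 75th percentile. How much of the pelvis and ureter was kept with each kidney is not given in the sources used here, and its part in these peaks was not tested. The peak count of the list was 2 with normexp correction and 3 among genes well above background at all ages. In whole tissue, fewer cells of a type and less RNA per cell cannot be told apart.

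Genes of neutrophil granules were P0 peaks in 8 of 13 measured cases, with median steps of 2.48 and -1.62. S100a8, a subunit of calprotectin, had levels of -4.89 at E13.5, 0.35 at P0 and -3.91 at 8 weeks. Its partner S100a9 had -3.40, 2.14 and -1.49. These were 37.6-fold and 46.4-fold higher at P0 than at E13.5, and 19.2-fold and 12.4-fold lower at 8 weeks. Lcn2, the siderophore-binding lipocalin that injured tubules also make, had levels of -3.98, 0.56 and -2.38.

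Camp, the cathelicidin precursor, had -4.71, -2.23 and -4.89, and its second probe fell in the same class. Chil3, Retnlg, Ltf and Ngp completed the group, with Ltf (lactoferrin) and Ngp well above background at P0 alone of the 3 ages. The other 5 genes of the list did not peak. Mmp8 and Mmp9, proteases of later granules, were well above background at P0 alone of the 3 ages, with bounds under 2-fold. Mpo, myeloperoxidase, was 5.73-fold lower at P0 than at E13.5 and not well above background at 8 weeks. Prtn3 differed by 1.02-fold at the first step, and Elane was 2.04-fold higher at 8 weeks than at P0. All 4 measured stefin A genes, inhibitors of cysteine proteases that myeloid cells make, were P0 peaks. Stfa2 had levels of -3.64, -0.47 and -3.86, and Stfa1 was 34.0-fold higher at P0 than at E13.5 and at least 31.5-fold higher than at 8 weeks. Their sequences are close copies, so a probe of 1 may read the others. The list's count of P0 peaks was 3 with normexp correction and 5 among genes well above background at all ages.

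Immediate early genes, which cells switch on within minutes of a stimulus, were P0 peaks in 4 of 11 measured cases, with median steps of 1.13 and -1.58. Atf3 was 4.94-fold higher at P0 than at E13.5 and 13.8-fold lower at 8 weeks, and Nr4a1 had levels of -0.12, 2.04 and -0.68. Egr1 had 0.23, 1.35 and -2.24, so that its adult level was below the embryonic one. Fos was 2.94-fold higher at P0 than at E13.5 and not well above background at 8 weeks. Dusp1, Fosb and Ier3 were higher at the first step with no counted second step, Egr2 and Ier2 were lower at the second step only, and Jun and Junb had no counted step. The list's count of P0 peaks was 2 with normexp correction.

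Genes that glucocorticoid hormones induce split between classes, with 3 P0 peaks and 3 rising genes among 11. Sgk1, a kinase that raises sodium uptake, had levels of 0.06, 3.30 and 1.95, and Mt2, a metallothionein, 1.63, 5.11 and 4.03. Both stayed at least 2-fold above the embryonic level in the adult. Cdkn1a, the cell cycle inhibitor p21, had -1.45, 1.02 and -3.74 and ended below it. The receptor gene Nr3c1 and the targets Klf9 and Errfi1 were rising, while Tsc22d3 stayed within 2-fold at both steps and Fkbp5 was 2.52-fold higher at 8 weeks than at P0.

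**Figure D3:**
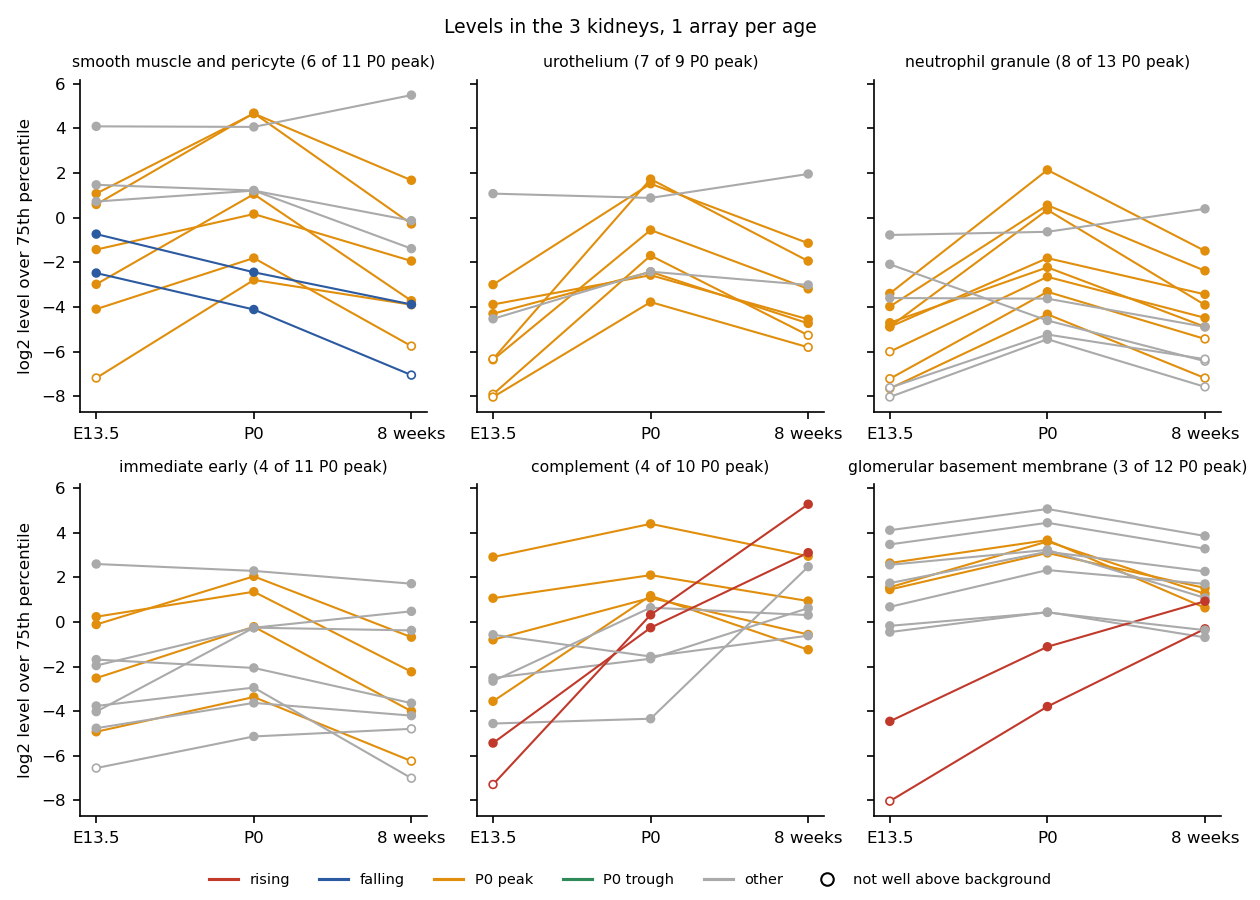
Levels (y axis, log2 over the 75th percentile) of every measured gene of 6 lists in the E13.5, P0 and 8-week kidney (x axis), coloured by class, with open points where the gene was not well above background. Orange lines, the P0 peaks, make up 7 of 9 urothelium, 8 of 13 neutrophil granule and 6 of 11 smooth muscle genes, but 3 of 12 basement membrane genes.

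Complement genes fell into opposite courses. Of 10 measured, 4 were P0 peaks, among them the regulators Cfi and Serping1 and the protease C1s1. Cfi, factor I, had levels of -3.56, 1.17 and -1.25, a 26.6-fold and a 5.36-fold difference. C1s1 had -0.80, 1.08 and -0.57, and Serping1, the C1 inhibitor, 1.06, 2.10 and 0.93. In contrast C2 and Cfb, which form the convertases, were rising, with Cfb at least 74.1-fold higher at P0 than at E13.5 and a further 31.1-fold higher at 8 weeks. C3 and C4b were higher at the second step only, C4b by 113-fold, but the second probe of C3 was rising (2.69 and 2.11). The second probe of Serping1 had steps of 0.93 and -1.58, and with the mean over a gene's probes 1 of the 10 genes remained a P0 peak.

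Of 12 measured genes of the glomerular basement membrane 3 were P0 peaks and 2 were rising. Col4a1, a chain of the embryonic and general type IV collagen network, had levels of 1.55, 3.60 and 1.26, a 4.15-fold and a 5.08-fold difference. Its partner Col4a2 had 1.45, 3.09 and 1.52. Lamc1, the laminin gamma chain, had 2.64, 3.66 and 0.63. Col4a3 and Col4a4, chains of the adult glomerular network, were rising instead. Col4a4 had levels of -4.46, -1.12 and 0.92, and Col4a3 was not well above background at E13.5.

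Of the other 7 genes of the list, Lama1 and Lama5 were higher at the first step only, 4 were lower at the second step only, and Col4a5 had no counted step. Agrn, Lamb1 and Lamb2 missed the peak class narrowly, with first steps of 0.95, 0.97 and 0.90. The list's count of P0 peaks was accordingly 3 here, 6 with quantile normalization and 7 without percentile scaling. The second probe of Agrn had steps of 0.45 and 0.31, under 2-fold at both. Over all 40 measured collagens 11 were P0 peaks, among them Col6a1 (2.13, 3.28 and -0.07), Col7a1 and Col18a1, and 12 were lower at the second step only. Lox, which cross-links collagen, had levels of -4.26 and -1.62 and was not well above background at 8 weeks, and its second probe fell in the same class.

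In a smaller group the peak was an overshoot and the adult level stayed above the embryonic one. Aqp2, the water channel of principal cells that vasopressin regulates, had levels of -3.44, 4.12 and 2.96. It was 189-fold higher at P0 than at E13.5 and 2.24-fold lower at 8 weeks than at P0. Ren1, renin, had levels of -3.79, 0.48 and -0.75, a 19.2-fold and a 2.34-fold difference. Cyp27b1, which activates vitamin D, was not well above background at E13.5 and had -1.51 at P0 and -3.00 at 8 weeks. Its counterpart Cyp24a1, which degrades the hormone, was rising, with -1.14 and 2.28 at these ages. Isg15, a ubiquitin-like protein that interferon induces, had -2.21, 1.81 and 0.50. The other 9 measured interferon genes held 6 that were higher at the first step only and 2 rising genes.

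Elf5, a factor of principal cells, was the other P0 peak beside Aqp2 among 11 measured principal cell genes. It had levels of -2.60, 1.02 and -2.98, 12.3-fold higher at P0 than at E13.5 and 16.1-fold lower at 8 weeks. Of the other 9 genes 6 (Aqp3, Aqp4, Avpr2, Fxyd4, Scnn1b and Scnn1g) were higher at the first step with no counted second step. Scnn1a was rising, Hsd11b2 was higher at the second step only, and Kcne1 was well above background at E13.5 only.

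Of 14 measured early nephron genes 2 were P0 peaks. Wnt4, the signal that turns progenitors into epithelium, had levels of 2.52, 3.69 and -3.37, a 2.26-fold and a 134-fold difference, and its second probe fell in the same class. Cdh6, the cadherin of early proximal nephrons, had -2.04, -0.91 and -3.99, but its second probe had a first step of 0.26. The other 12 early nephron genes had no P0 peak. Of 14 nephron progenitor genes Dapl1 alone was a P0 peak (-4.73, -1.89 and -4.07), and of 15 Hox genes Hoxd9 alone. Npnt, the integrin ligand nephronectin, had -2.65, 0.28 and -2.07 and the same class with its second probe. Among 14 endothelial genes Sox17 and Tie1 were P0 peaks with small steps, and the second probe of Sox17 missed both steps (0.87 and -0.92).

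The adipocyte fatty acid binding protein Fabp4 was a P0 peak with levels of 0.67, 5.03 and 2.05, a 20.6-fold and a 7.91-fold difference. Of the 10 adipocyte genes, Adipoq, Cfd, Lep and Ucp1 were not well above background in any of the 3 kidneys. Endothelial cells also make Fabp4, and of the 14 endothelial genes 2 were P0 peaks, with median steps of 1.03 and -0.62. The 5 other measured adipocyte genes did not follow Fabp4. Their summed level was 0.233, 0.152 and 0.144 times the 75th percentile at the 3 ages. Which cells gave the Fabp4 signal was not tested. F13a1, the factor XIII subunit of macrophages, had -1.70 and -0.39 and was not well above background at 8 weeks. Of 13 measured macrophage genes it was the 1 P0 peak, against 3.32% of all genes, and 5 had no counted step. Of 13 hypoxia genes 2 were P0 peaks, 2 were rising and 4 had no counted step. Pdk1, a kinase that turns pyruvate away from mitochondria, had -0.61, 0.72 and -1.53. Egln3, an oxygen sensor, had -0.91, 0.16 and -1.85, and its second probe was lower at the second step only. Of 9 measured heat shock genes Hspb1 was the 1 P0 peak (2.01, 3.58 and 1.85), and 4 had no counted step. Hp, haptoglobin, was 5.66-fold higher at P0 than at E13.5 and 10.8-fold lower at 8 weeks, and Krt18 had 4.00, 5.46 and 2.04. Hp and Krt18 were the 2 P0 peaks among 13 injury and acute phase genes, of which 4 were lower at the second step only.

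The 221 trough genes had smaller median steps than the peak genes. In 23 of them both steps reached 4-fold, against 160 of the 605 peak genes. Bcat1, which starts the breakdown of branched-chain amino acids, had levels of -1.36 at E13.5, -5.00 at P0 and 2.24 at 8 weeks. It was 12.5-fold lower at P0 than at E13.5 and 152-fold higher at 8 weeks than at P0, and its second probe fell in the same class. Car3, a carbonic anhydrase of muscle and fat, had -0.59, -4.33 and -1.12, with embryo and adult within 2-fold of each other. Rrm2b, a ribonucleotide reductase subunit that p53 induces, had -2.15, -4.87 and -2.15.

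Myom2, a protein of the sarcomere's M-band, had levels of -2.28, -4.99 and 0.78 and so ended above its start. Mgme1, a nuclease of mitochondrial DNA, had -2.78, -5.65 and -3.11, and Cebpg, a bZIP factor, had -0.73, -2.98 and -0.65. Fgf18, a fibroblast growth factor, had 0.70, -1.53 and 0.73, and its second probe gave steps of -2.55 and 2.48. In these genes and in Sult2a8, Astn1 and Synpr the newborn array was lowest of the 3. The lowest level well above background on the P0 array was -6.02. Mgme1 (-5.65) and Synpr (-5.26) lay not far above it at P0, as did Bcat1 and Myom2, so their fold sizes rest on dim signals. The whole trough class was dim at P0, with a median level of -4.46 against -0.98 for all genes.

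Angptl4, a secreted inhibitor of lipoprotein lipase that fasting induces, had levels of 2.06, -0.27 and 4.49, 5.04-fold lower at P0 than at E13.5 and 27.2-fold higher at 8 weeks. It went against its list, in which 6 of 9 ketone body and fasting genes were rising and 2 were higher at the second step only. Pdk4, which the same fatty acid sensors induce, had -4.34, -1.67 and 0.27. Slc4a1, the anion exchanger of red cells and of acid-secreting intercalated cells, had 0.61, -2.43 and 0.33. The other 9 intercalated cell genes had first steps above 0, and 5 of them were rising. Foxi1, the factor that specifies these cells, had -3.33, -0.19 and 0.98.

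The erythroid factor Klf1 was also a trough gene (-3.82, -5.24 and -3.71), while the globin Hba-a1 (7.34, 6.25 and 2.72) and Ahsp, the alpha globin chaperone, were falling. Globin probes may read several of the near-identical globin genes. The embryonic globins Hbb-y, Hba-x and Hbb-bh1 were well above background at E13.5 and at no later age. How red cell RNA bears on Slc4a1 was not tested.

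The Y-linked genes Eif2s3y and Ddx3y were among the trough genes with the largest bounded steps. Eif2s3y had levels of -0.01 at E13.5 and 1.81 at 8 weeks and was not well above background at P0 (-7.46), so that P0 was at least 64.4-fold lower than E13.5 and at least 226-fold lower than 8 weeks. Uty, also Y-linked, was not well above background at P0 either. Xist, the RNA that silences an X chromosome in females, had -0.73 and -0.93 at E13.5 and P0 and was not well above background at 8 weeks. The E13.5 array thus carried both Y-linked and Xist signal, the P0 array Xist alone and the 8-week array the Y-linked genes alone. Sex and age therefore cannot be told apart at either step.

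Snhg12, a small nucleolar RNA host gene, and Nrg4, an epidermal growth factor family ligand, were also well above background at both outer ages only, at least 60.6-fold and 20.9-fold lower at P0 than at E13.5. The second probe of Nrg4 was well above background at 8 weeks only. The heat shock gene Hsph1 was a trough by both probes, with main steps of -1.04 and 1.16. For Ntn1, a guidance protein of the stroma, the second probe's later step was 0.86. Tnnc1, the troponin C of slow and heart muscle, had -2.66, -5.36 and -4.08. Hsd3b1, a steroidogenic dehydrogenase, was well above background at both outer ages only. Kif20b (1.32, -0.31 and 2.19) was a trough gene in the kinesin family of motor proteins, in which 8 of 35 measured genes were falling and 10 lower at the second step only. It was singled out after its values were seen.

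**Figure D4:**
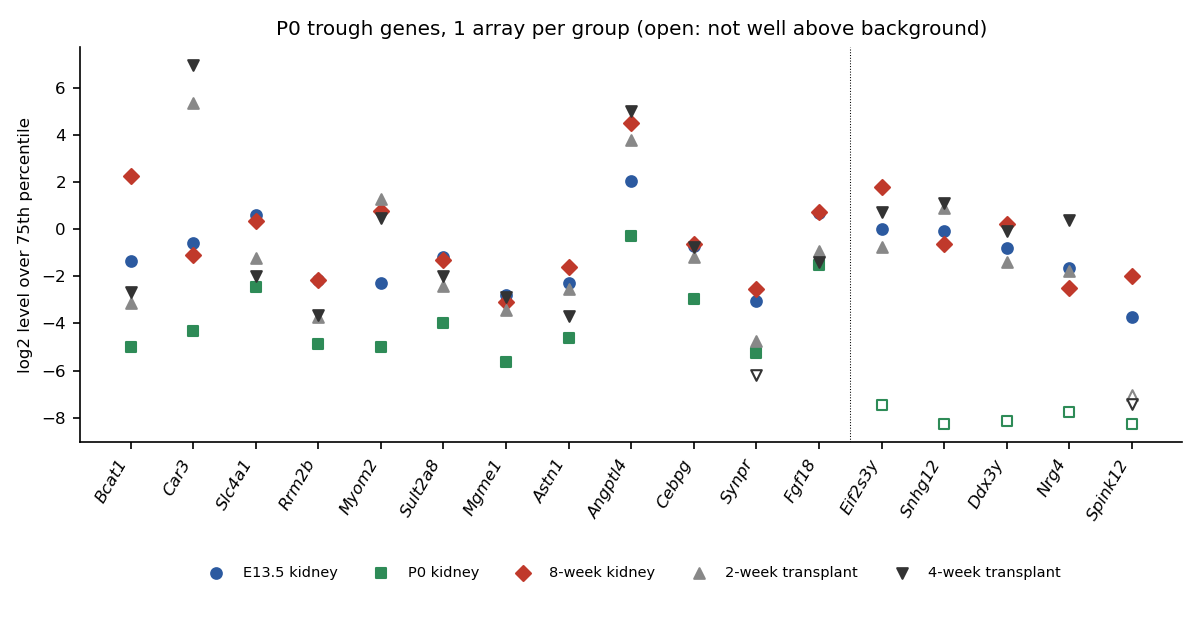
Levels (y axis, log2 over the 75th percentile) of P0 trough genes with a large smaller step, on all 5 arrays, with genes well above background in all 3 kidneys left of the dotted line and genes with a bounded step right of it. Green squares, the P0 kidney, lie lowest of the 3 kidneys for every gene, and open symbols mark signals not well above background.

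Proximal tubule genes had the highest share in the rising class. All 24 measured proximal tubule genes were rising, against 5.67% of all genes, with median steps of 6.26 and 3.90. Slc34a1, the phosphate cotransporter whose promoter is printed above, was not well above background at E13.5 (-7.54) and had levels of 3.39 at P0 and 7.24 at 8 weeks. It was at least 623-fold higher at P0 than at E13.5 and 14.5-fold higher again at 8 weeks. Slc22a8, an organic anion transporter, was at least 7.42-fold and then 14.9-fold higher. Timing differed within the list: Fbp1, of gluconeogenesis, was 630-fold higher at the first step and 5.41-fold at the second, and Cyp2e1, a cytochrome, 14.1-fold and 609-fold.

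Among rising genes well above background at every age the largest smaller step was that of Nat8, an acetyltransferase, with -4.73, 1.67 and 6.92. Slc27a2, which activates and imports fatty acids, had -4.81, 3.26 and 8.12. G6pc, the last enzyme of glucose release, had -4.35, -0.01 and 5.64. Each was low in the embryo, near or above the 75th percentile at birth and high in the adult. The kallikreins Klk1b5, Egfbp2 and Klk1b26 were among the 6 rising genes with the largest smaller step that was bounded on 1 side, at least 63.5-fold at the first step and 102-fold or more at the second, but are near-copies whose probes may read one another.

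Further along the nephron the rising share was lower. It was 7 of 12 in the loop of Henle, 6 of 10 in the distal and connecting tubule, 5 of 10 in intercalated cells and 1 of 11 in principal cells. Umod, uromodulin of the thick limb, had -4.74, 2.97 and 7.28. Egf, made in the same region, stayed level to birth (-4.91 and -5.04) and was 818-fold higher at 8 weeks. The rising class also took in 9 of 16 fatty acid oxidation and peroxisome genes, 10 of 17 cytochrome P450 and conjugation genes and 5 of 11 antigen presentation genes. By family, 82 of 328 solute carriers and 9 of 13 Ugt genes, which glucuronidate drugs and steroids, were rising. The respiratory chain was later: 11 of 14 genes were higher at the second step only, and its median steps were 0.29 and 1.22.

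Fetal growth genes had the highest share in the falling class. Of 15 measured genes of fetal growth and developmental timing 10 were falling, against 3.5% of all genes, with median steps of -1.39 and -4.09. Dlk1, an imprinted Notch-like ligand, had levels of 4.93, 1.31 and -5.17, 12.3-fold lower at P0 than at E13.5 and 89.6-fold lower again at 8 weeks. Its second probe fell in the same class. Hmga2, a chromatin protein of fetal stem cells, had 4.15 and 0.47 and was not well above background at 8 weeks. Lin28b, which blocks maturation of let-7 RNAs, was 18.8-fold lower at the first step and at least 2.18-fold at the second.

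Foxd1, the factor of the stromal progenitors, had levels of 2.69, -0.42 and -4.94, and Has2, which makes hyaluronan, 1.84, -1.27 and -4.53. The retinoic acid binding protein Crabp2 had 5.33, 2.94 and -0.78. All 3 were highest in the embryo and lowest in the adult. Nephron progenitor genes were falling in 5 of 14 cases, Six2 among them, and lower at the second step only in 4.

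Cell cycle genes moved mostly after birth. Of 18 measured, 7 were falling and the other 11 were lower at the second step only, with median steps of -0.94 and -5.19. Aurka, a mitotic kinase whose promoter is printed above, had levels of 3.17, 1.66 and -3.17. It was 2.86-fold lower at P0 than at E13.5 and 28.3-fold lower at 8 weeks than at P0. Ccnb1, cyclin B1, had 3.31, 2.04 and -4.16. The proliferation marker Mki67 stayed just under 2-fold at the first step (1.78-fold lower) and was 45.0-fold lower at the second. Of 18 fibrillar and elastic matrix genes 12 were lower at the second step only, against 13.4% of all genes. Their median steps were 0.29 and -3.60, with 3 falling genes and 2 P0 peaks.

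A second probe of the same gene often gave another class. Of 111 P0 peak genes with a second probe well above background, 48 had the same class (43.2%), and of 49 trough genes 13 (26.5%). The shares were 167 of 295 for rising genes (56.6%), 100 of 199 for falling genes (50.3%) and 72.6% for genes under 2-fold at both steps. Among genes lower at the first step only the share was 114 of 280 (40.7%). Where both steps had a value, the second probe had both signs right in 80 of 108 peak and 30 of 40 trough genes, and 1 trough gene had the opposite class. The difference between these shares was not tested, and genes are not replicates. Closeness to the limit was counted only for genes well above background at every kidney age and without gene-model names. Genes with a bounded step were left out, so these counts do not cover the whole classes. Among the genes counted, 53 peak genes had a smaller step within 0.1 log2 units above the limit, and 54 genes lay as close below it. For the troughs these numbers were 37 and 52. Of the genes counted, Rasl11b (first step 1.00, second -1.73) was the last peak gene inside. Akr1b7, with a first step that rounds to the same value, was the first outside.

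The transplants, which played no part in the classing, were compared with the kidneys for the peak genes. Within 2-fold of the P0 level lay 246 of the 605 at 2 weeks and 244 at 4 weeks, while 251 and 229 were lower and 108 and 132 higher. At 2 weeks 311 of the 605 peak genes (51.4%) were at least 2-fold above both the E13.5 and the 8-week kidney, against 8.78% of all genes. At 4 weeks 322 (53.2%) were, against 9.87%, and 256 genes were so in both transplants. The E13.5 and 8-week values also set the class, so these shares are not independent of it. Genes higher at the first step alone had 27.6% and 30.7%. The 2-week transplant lay on slide 1 with E13.5, and the 4-week transplant on slide 2 with the other kidneys. Of the trough genes 75 (33.9%) at 2 weeks and 61 (27.6%) at 4 weeks were at least 2-fold below both kidneys, against 2.67% and 2.6% of all genes.

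**Figure D5:**
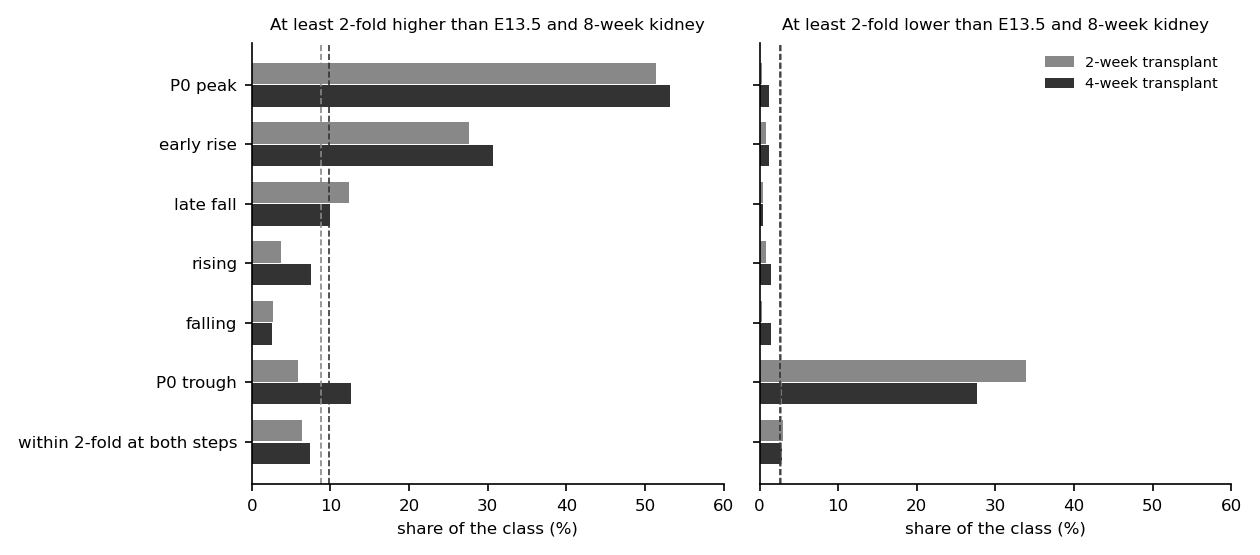
Share of each class (x axis, percent) at least 2-fold above (left) or below (right) both the E13.5 and the 8-week kidney in the 2-week and 4-week transplant, with dashed lines at the share of all genes. The P0 peak bars reach 51.4% and 53.2% on the left, and the P0 trough bars 33.9% and 27.6% on the right.

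The groups of peak genes differed in the transplants. All 6 smooth muscle peak genes were at least 2-fold above both kidneys in each transplant, and Acta2 had levels of 4.70 and 4.02 beside 4.68 at P0. All 4 complement peak genes were too, with Serping1 at 4.48 and 4.56. Of the 7 urothelium peak genes 1 was so at 2 weeks and all 7 at 4 weeks. Upk1a had -2.23 at 2 weeks and 4.61 at 4 weeks. The neutrophil granule genes were above both kidneys in 6 of 8 cases at 2 weeks and 8 of 8 at 4 weeks, with S100a9 at 2.66 and 5.10.

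Some of the largest peaks were not shared. Afp had -2.96 at 2 weeks and was not well above background at 4 weeks. Aqp2 had 0.74 and -1.69, below both the newborn and the adult kidney. Wnt4 had 0.96 and 1.92, between its embryonic and adult levels. Among the trough genes Slc4a1 (-1.22 and -1.99), Rrm2b (-3.72 and -3.65) and Fgf18 (-0.92 and -1.39) were lower in both transplants than at E13.5 and 8 weeks. Car3 reached 5.34 and 6.97, above all 3 kidneys. The summed level of the 5 adipocyte genes other than Fabp4 was 92.4 and 292 times the 75th percentile there, and its part in Car3 was not tested. Angptl4 had 3.77 and 5.02, above its newborn and embryonic levels. Spink12 was not well above background at P0 or in either transplant.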

How the data were processed

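RNA of 5 groups was hybridised to 1 one-colour Agilent mouse array each. Per the file headers, Agilent Feature Extraction 10.7.3.1 subtracted background from the spot intensity and detrended it. The headers also name flags for signal well above background and for outliers. The gene table deposited by the authors holds log2 values centred per gene and served as an alternative.

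Each level is the log2 intensity less log2 of its array's 75th percentile, taken over the 43020 spots outside the controls. Spots marked as outliers on any kidney array were dropped, and a gene took its probe of highest mean over the 3 kidney arrays. Of 39429 probes 31795 got names through the authors' gene identifiers and RefSeq, 2026 by the authors' symbol, 19 by accession, and 5589 stayed unnamed. For a dim side the array's lowest well-above-background value was used unless its own was higher, a bound that turned the direction was set to 0, and a step dim on both sides had no value. The lowest well-above-background levels were -5.90 at E13.5, -6.02 at P0 and -5.38 at 8 weeks. At E13.5 R3hdml (-5.60) and S100a14 (-5.49) lay near the lowest. The number of arrays limits the precision.

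Members and gene lists were chosen with earlier results of these data known. The text names, by the smaller step, genes among the first 12 of the peak and trough classes, the first 8 of the rising and falling classes and the first 6 with a bounded step, without gene-model names, and members of the lists. Other genes named were chosen after their values were seen. A few genes that the rule allows are not reported here. Computation used Python 3.11.15 with numpy 2.4.6 and pandas 2.3.3, and R 4.3.3 with limma 3.58.1 for normexp (offset 50) and quantile normalization. The classing code was checked on simulated bright genes with planted 4-fold steps and small noise. This checks the code and not the classes of the real genes.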

Additional observations from a re-analysis of the deposited data

How the results depend on the processing

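Each group had 1 array, so no array could be left out. No paired analysis was possible because each group had only replicate 1. Of the 9 alternatives, quantile normalization and the mean over probes kept all 4 class counts within 1.5 times; the first kept 92.6% of the peak and 93.7% of the trough genes in their class. With normexp on signal and background the classes held 530 rising, 228 peak and 763 trough genes; its fitted background mean was -992 at E13.5, against 27.5 at P0 and 27.4 at 8 weeks. With negative control spots there were 401 peak and 113 trough genes. Without percentile scaling there were 92 trough genes, and all 605 peak genes stayed in a class of 898. The authors' deposited table gave 1033 peak and 112 trough genes, with a median second step of -0.46. Genes well above background at all 3 ages gave 397 falling and 364 peak genes. A 4-fold step left 396 rising, 51 falling, 160 peak and 23 trough genes, and a 1.5-fold step gave 1781, 1794, 1104 and 758. Peak genes above both kidneys numbered 131 (2-week transplant) and 119 (4-week) with normexp, 201 and 211 with negative controls, 560 and 521 with the authors' deposited table, 83 and 100 at 4-fold, 511 and 523 at 1.5-fold, and 496 at 2 weeks without scaling. With normexp the smaller step of 11 named genes turned sign: Actg2 -0.64, Camp -0.79, Chil3 -0.64, Cldn1 -1.04, Cyp2e1 -0.33, Dapl1 -0.55, Fos -1.74, Krt13 -0.93, Krt15 -1.48, Lox -0.45 and Pdk4 -0.46. The cause was not tested.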
